A study of Homo sapiens with 4 samples.

Results

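The tripartite motif (TRIM) genes were followed across 4 states of THP-1 macrophages. Every probe whose single annotated symbol was TRIM followed by a number, with or without 1 closing letter, was taken, which gave 69 genes with 119 probes out of 20045 genes with 30111 probes that carry 1 symbol. THP-1 is an established human acute monocytic leukemia line, a single transformed line that stands in for human macrophages. The cells were compared as M1 macrophages made with interferon-gamma and lipopolysaccharide, M2a macrophages made with interleukin-4, M2c macrophages made with interleukin-10, and the M0 macrophages from which all of these were polarized. Each state was measured on 1 Illumina BeadChip array of whole-culture RNA. The doses, the times and the agent that turned the THP-1 monocytes into macrophages were not given in the sources used here. With 1 array per state there is no replicate check, no difference below carries a test, and state, culture and array cannot be told apart. In whole-culture RNA, fewer expressing cells and less RNA per cell cannot be told apart either.

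TRIM proteins are built from a RING finger, 1 or more B-box zinc fingers and a coiled coil, followed by a variable end that often binds the target. Most act as E3 ubiquitin ligases. Several are made in larger amounts after interferon and act against viruses in macrophages and other cells, either by binding viral parts or by regulating the sensors that trigger interferon. Others work as transcriptional corepressors, bind microtubules or regulate protein turnover.

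On the M1 array 7 of 35 measurable TRIM genes stood at least 2-fold above M0 (20.0%), near the 15.0% of all genes tested. They were TRIM69 and TRIM31, which were detected on the M1 array alone, and TRIM5, TRIM56, TRIM22, TRIM21 and TRIM26. The TRIM26 call was lost under at least 1 alternative processing. On the M2a array TRIM22, TRIM33, TRIM36 and TRIM5 were lower than on M0 and TRIM47, which encodes a ligase with a SPRY end, was higher. These were 12.1% of TRIM genes lower and 3.03% higher, against 5.04% and 4.09% of all genes tested. Only the TRIM22 call held under every alternative processing. No TRIM gene differed from M0 by 2-fold or more on the M2c array. A gene is said here to have risen or fallen when the 2 arrays differed by at least 2-fold, which is 1 on the log2 scale, and the probe was detected (detection p below 0.01 against the array's negative controls) on at least 1 of them. Levels are log2 intensities after background correction and quantile normalization, and a gene is represented by its probe with the highest mean level. Levels of different probes are not compared with each other, except that mean level chose this probe and some of the genes to name.

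The promoters of the 4 genes with the largest M1 rise are shown, chosen by the size of the rise. They were searched for the letters of the interferon-stimulated response element core (GAAA, any 2 bases, then GAAA), which some held and others did not. Sequences are from RefSeq on GRCh38.p14 and run from 250 bases before the start site to 50 after it, in the gene's own direction. Capitals mark the motif, which reads TTTC, 2 bases, TTTC when it lies on the other strand. The TRIM69 promoter lies at chr15:44736278-44736577 on the plus strand, that of TRIM31 at chr6:30113041-30113340 on the minus strand, that of TRIM5 at chr11:5685025-5685324 on the minus strand and that of TRIM56 at chr7:101085231-101085530 on the plus strand.
TRIM69: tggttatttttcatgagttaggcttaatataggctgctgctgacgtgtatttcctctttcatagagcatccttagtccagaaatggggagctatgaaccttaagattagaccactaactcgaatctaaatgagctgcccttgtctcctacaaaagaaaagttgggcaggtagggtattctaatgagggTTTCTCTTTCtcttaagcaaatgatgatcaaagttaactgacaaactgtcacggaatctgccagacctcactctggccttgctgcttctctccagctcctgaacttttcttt
TRIM31: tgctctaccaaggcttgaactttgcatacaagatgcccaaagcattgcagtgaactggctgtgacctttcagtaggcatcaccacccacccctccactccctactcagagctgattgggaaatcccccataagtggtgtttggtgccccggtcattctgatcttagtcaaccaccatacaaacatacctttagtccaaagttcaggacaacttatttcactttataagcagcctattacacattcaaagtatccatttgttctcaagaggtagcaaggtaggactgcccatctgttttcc
TRIM5: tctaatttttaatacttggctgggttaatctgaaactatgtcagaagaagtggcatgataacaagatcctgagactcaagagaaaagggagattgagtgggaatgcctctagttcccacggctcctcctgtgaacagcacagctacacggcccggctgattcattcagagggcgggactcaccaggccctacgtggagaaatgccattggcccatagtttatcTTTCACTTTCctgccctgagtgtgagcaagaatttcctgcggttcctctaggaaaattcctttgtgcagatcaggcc
TRIM56: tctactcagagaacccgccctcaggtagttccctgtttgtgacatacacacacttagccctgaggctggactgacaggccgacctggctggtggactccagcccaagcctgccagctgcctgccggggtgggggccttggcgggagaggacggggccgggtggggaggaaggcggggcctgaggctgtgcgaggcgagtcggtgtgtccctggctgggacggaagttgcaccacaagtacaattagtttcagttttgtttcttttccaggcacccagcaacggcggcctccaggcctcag

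The first base of the motif lay at position -62 from the start site in TRIM69 and at -27 in TRIM5. The TRIM31 and TRIM56 windows held no match to these letters. Shorter windows of 24 or 30 bases are shown for the other detected members with a match, chosen after the motif search: TRIM21 at chr11:4393663-4393692 (minus strand), TRIM26 at chr6:30213578-30213607 (minus strand), TRIM14 at chr9:98119232-98119255 (minus strand) and TRIM44 at chr11:35662733-35662756 (plus strand). TRIM21 and TRIM26 each held 2 overlapping matches.
TRIM21: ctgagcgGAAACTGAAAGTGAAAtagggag
TRIM26: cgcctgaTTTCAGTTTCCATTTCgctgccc
TRIM14: gccgaggTTTCGGTTTCccttggg
TRIM44: tgacgggGAAAGGGAAAgtggaac

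A promoter was found for 53 of the 69 TRIM genes, and 10 of these (18.9%) held this motif on either strand, against 996 of 27305 promoters in the whole table (3.65%). Of the 6 genes that rose in M1 and had a promoter entry, 4 held it (TRIM5, TRIM21, TRIM26 and TRIM69). TRIM22, which also rose, had no promoter entry. Among the 15 TRIM genes with a promoter that were measured and did not pass 2-fold in M1, TRIM14 alone held it, and among the 4 that fell, TRIM44 did. The gamma-activated site (TTC, any 3 bases, then GAA), which reads the same on both strands, occurred in 0 of the 25 detected TRIM genes with a promoter, in 9 of all 53 and in 2152 of the 27305 promoters (7.88%). TRIM2 and TRIM16 held both motifs, at separate positions. A match is a description of the letters in the window, and binding there was not measured.

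All 4 arrays were of similar depth of detection. Between 12937 probes (27.4%, M1) and 14818 probes (31.4%, M0) of 47228 were detected. All 7 macrophage markers, among them CD68, CSF1R and TYROBP, were detected on every array. Of 9 measured genes listed as markers of other cell types, 3 were detected on any: PECAM1 on all 4, PPBP on 3 and NCAM1 on M2c. Their detection alone does not show that such cells were present. In M1, 4 of the macrophage markers fell relative to M0, CD14 by 1.67 and CSF1R by 1.53 among them, and SPI1 was 1.06 higher, on the log2 scale. In M2a, ITGAM was 2.37 higher and LYZ fell by 2.07. The part of these shifts in the TRIM values was not tested. Over the 10395 genes detected on any array, the median M1 minus M0 difference was -0.17, and under other ways of scaling it ranged between -0.62 and 0.12, so that M1 differences are read beside this shift.

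Of the 69 TRIM genes, 35 were detected on at least 1 array, 23 of them on all 4 and 12 on some. By array, 30 were detected in M1, 29 in M2a, 30 in M2c and 33 in M0. The 34 genes with no detected probe had raw intensities between 84.9 and 133.7 on every array and give no measure of change. They were TRIM2, TRIM3, TRIM6, TRIM7, TRIM10, TRIM15, TRIM16, TRIM17, TRIM29, TRIM34, TRIM40, TRIM42, TRIM43, TRIM43B, TRIM45, TRIM48, TRIM49, TRIM49B, TRIM49C, TRIM50, TRIM51, TRIM54, TRIM55, TRIM59, TRIM60, TRIM61, TRIM62, TRIM63, TRIM64, TRIM64C, TRIM67, TRIM71, TRIM72 and TRIM74. Among them are the muscle proteins TRIM54, TRIM55, TRIM63 and TRIM72. Probes of near-identical copies (TRIM16 and TRIM16L, TRIM43 and TRIM43B, the TRIM49 genes, the TRIM64 genes, and TRIM50, TRIM73 and TRIM74) may not tell their genes apart.

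In M1 against M0, 7 of the 35 measurable TRIM genes rose (20.0%), against 15.0% of all 9986 genes tested, and 4 fell (11.4%), against 19.0% of all genes. The median TRIM difference was 0.52, against -0.19 over all genes tested, and 21 TRIM genes lay above 0 and 14 below. Of all genes tested, 4261 lay above 0 and 5721 below. The share that rose is near that of all genes. The split of 7 higher and 4 lower depends on the scaling. It was 6 and 0 in the authors' normalized table and 6 and 7 with the arrays set to a common median. It was 7 and 0 with a larger background offset, and 10 and 2 with a common median of detected probes. The median over all detected genes moved as well, to -0.62 with the common median and 0.12 with that of detected probes. These splits are therefore not a measure of the TRIM genes alone.

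**Figure D1:**
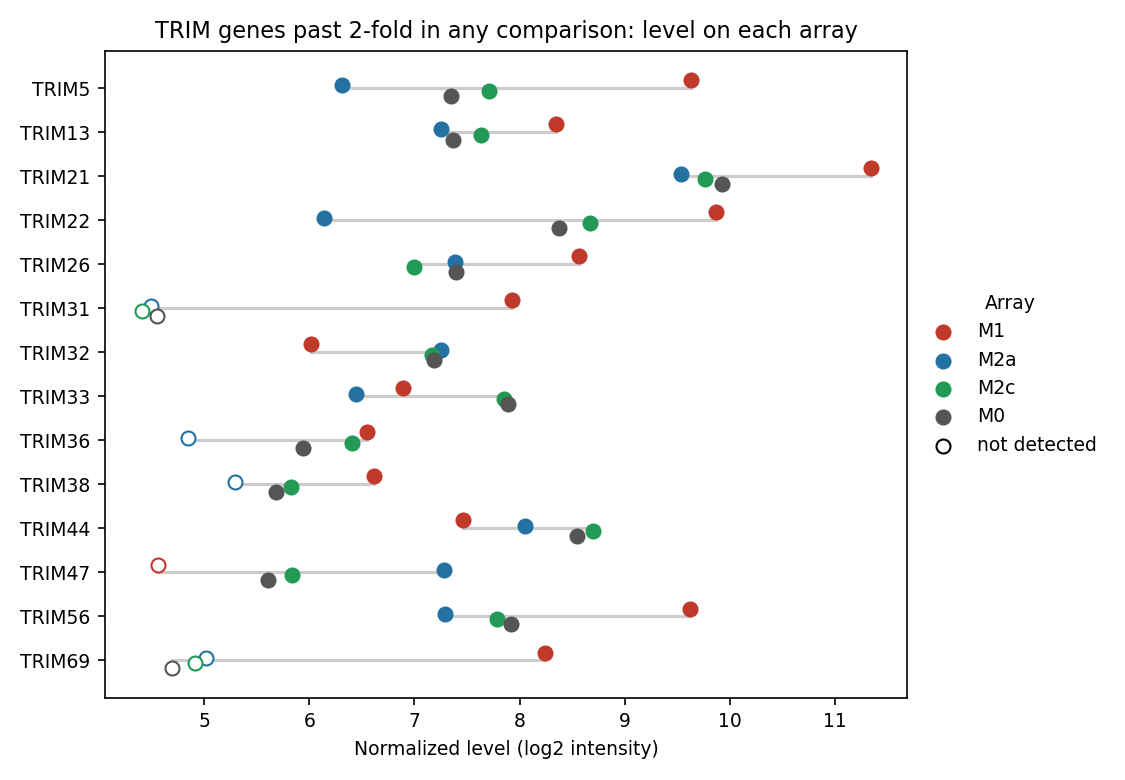
Level of each of the 14 TRIM genes past 2-fold in any comparison (horizontal axis, log2 intensity) on the M1, M2a, M2c and M0 arrays. Each point is 1 array and open points were not detected. TRIM31 and TRIM69 are detected on M1 alone, at 7.93 and 8.24, and TRIM22 has its lowest level, 6.14, on M2a.

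The plot of levels by array sets out the 14 genes that passed 2-fold in any of the 4 comparisons made, and the M1 point is the rightmost for 10 of them. TRIM5, the capsid-binding restriction factor of retroviruses, stood at 9.63 in M1, 6.31 in M2a, 7.71 in M2c and 7.34 in M0. Its M1 level was thus 2.29 above M0 and its M2a level 1.04 below it, with M2c within 0.37 of M0. Of the other probes of TRIM5, 1 was 2.23 higher in M1 than in M0, and 1 that was not detected in M0 was at least 5.72-fold higher in M1. In M2a against M0 the other detected probe was at -0.78, not past 2-fold. Over the alternative settings the M2a difference ranged from -1.21 to -0.59.

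TRIM22, an antiviral ligase whose gene lies in the same chromosome 11 cluster as TRIM5, had the widest range among genes detected on all arrays. It stood at 9.87 in M1, 6.14 in M2a, 8.67 in M2c and 8.37 in M0. The M1 level was 1.50 above M0, the M2a level was 2.23 below it, and M1 and M2a were 3.72 apart. In raw intensity this was 794.6 in M1, 157.9 in M2a, 561.4 in M2c and 451.1 in M0. The gene is covered by 1 probe.

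TRIM21, the cytosolic antibody receptor that sends antibody-coated virus to the proteasome, read 11.34 in M1, 9.54 in M2a, 9.76 in M2c and 9.92 in M0. It was 1.42 higher in M1 than in M0, while the M2a and M2c levels lay 0.39 and 0.16 below M0. TRIM56, a ligase that limits several RNA viruses and has been tied to STING signalling, read 9.62 in M1, 7.29 in M2a, 7.78 in M2c and 7.92 in M0, which placed M1 1.70 above M0. M1 alone stood apart for both genes, and M2a was the lowest array for both.

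TRIM31, which drives the signalling aggregates of the mitochondrial adaptor MAVS, read 7.93 in M1, 4.50 in M2a, 4.41 in M2c and 4.55 in M0, the last 3 not detected. Set against the detection limit of the M0 array, this is at least 6.32-fold higher in M1. Raw intensity was 242.4 in M1, 101.7 in M2a, 96.4 in M2c and 104.8 in M0. A further TRIM31 probe was detected on no array.

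TRIM69, reported to restrict vesicular stomatitis virus, had the same pattern of detection. It read 8.24 in M1, 5.01 in M2a, 4.92 in M2c and 4.69 in M0, again detected in M1 alone, and was at least 7.86-fold higher in M1 than in M0. Its other probes were detected in M1 only as well, at least 3.74-fold and at least 1.79-fold higher than in M0. TRIM26, a SPRY ligase encoded in the major histocompatibility region that regulates IRF3, read 8.56 in M1, 7.39 in M2a, 6.99 in M2c and 7.40 in M0. Its rise of 1.16 in M1 was the smallest of the 7 and ranged from 0.51 to 1.25 over the alternative settings.

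These 7 genes are all on a list of 12 TRIM genes known to respond to interferon, which was drawn up with earlier results of these data known and is no independent evidence. Of the 10 detected genes on the list, 7 rose and 0 fell in M1 against M0, with a median of 1.46. All 10 lay above 0, except that TRIM25 was -0.51 with the arrays set to a common median. Of all 9986 genes tested, 4261 lay above 0. TRIM31 and TRIM69 entered the 10 only through detection on M1, the array where they were high. The count above 0 and the median therefore partly follow from the detection rule. Under the other scalings 6 to 8 of the 10 passed 2-fold higher. In M2a, 8 were measurable, 2 fell (TRIM5 and TRIM22), 0 rose and 7 lay below 0, with a median of -0.39. Of all 9860 genes tested there, 5030 lay below 0.

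The other 3 detected members of that list did not pass 2-fold in M1. TRIM25, the ligase that activates the RNA sensor RIG-I, read 8.28 in M1, 7.96 in M2a, 8.22 in M2c and 8.11 in M0. TRIM38, a brake on inflammatory and antiviral signalling, read 6.62 in M1, 5.29 in M2a where it was not detected, 5.82 in M2c and 5.68 in M0. TRIM14, a MAVS-binding member without a RING finger, read 6.08 in M1, 5.46 in M2a, 4.97 in M2c where it was not detected, and 5.37 in M0. M1 minus M0 was 0.16 for TRIM25, 0.94 for TRIM38 and 0.71 for TRIM14, and TRIM6 and TRIM34 were not detected on any array.

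TRIM5, TRIM6, TRIM34 and TRIM22 form a cluster on chromosome 11. The 2 detected genes of this cluster, TRIM5 and TRIM22, both rose in M1 and both fell in M2a, and the other 2 were undetected. The TRIM5 fall in M2a did not hold under every alternative, whereas that of TRIM22 did. On chromosome 6 TRIM31, TRIM40, TRIM10, TRIM15, TRIM26 and TRIM39 are neighbours. There TRIM31 and TRIM26 rose in M1, TRIM39 was 0.08 above M0, and the other 3 were undetected.

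**Figure D2:**
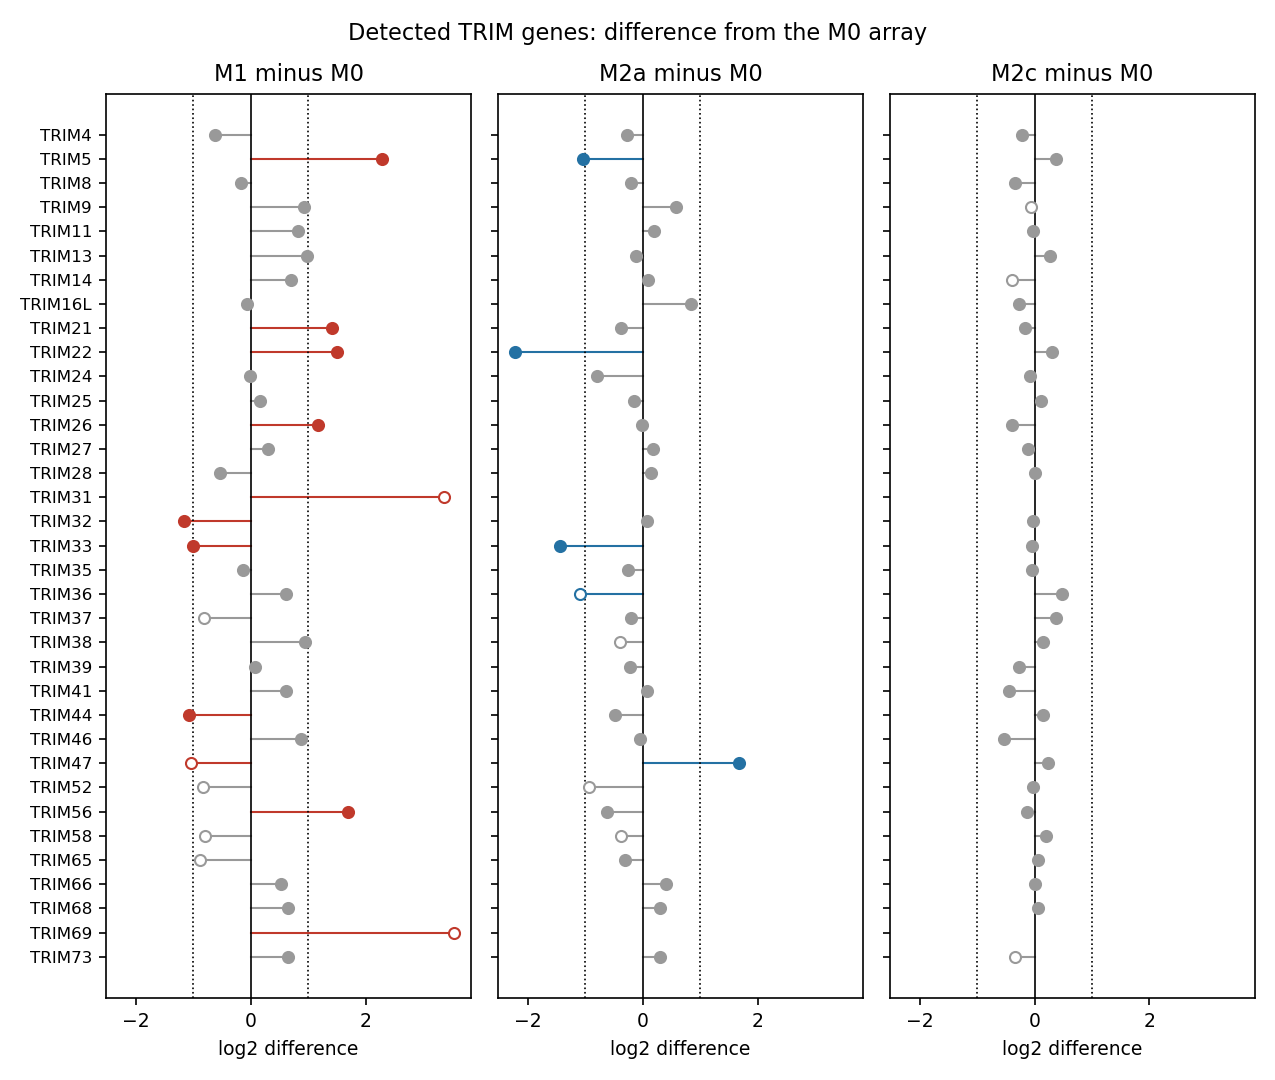
Difference from M0 (horizontal axis, log2) of the 35 detected TRIM genes on the M1, M2a and M2c arrays. Coloured genes pass 2-fold, dotted lines mark 2-fold, open points were detected on 1 of the 2 arrays, and a gene detected on neither has no point. The M2c differences all lie between -0.54 and 0.47.

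The plot of differences from M0 shows the members that fell in M1 as a smaller group near the threshold. TRIM32, a ligase with an NHL-repeat end that is mutated in a muscular dystrophy, read 6.02 in M1, 7.25 in M2a, 7.17 in M2c and 7.19 in M0, and fell by 1.17 in M1. TRIM44, which lacks a RING finger, read 7.46 in M1, 8.05 in M2a, 8.69 in M2c and 8.54 in M0, and fell by 1.08 in M1. M1 was the lowest array for both genes.

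TRIM33, a corepressor that acts on SMAD4 in transforming growth factor beta signalling, read 6.89 in M1, 6.44 in M2a, 7.85 in M2c and 7.89 in M0. It fell by 1.002 in M1 and by 1.45 in M2a. Its other detected probe went the opposite way in M1, 0.50 above M0, and was 0.82 below M0 in M2a. The M1 call therefore rests on 1 probe, whereas both probes were lower in M2a.

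TRIM47 read 4.56 in M1 where it was not detected, 7.28 in M2a, 5.84 in M2c and 5.61 in M0. It rose by 1.67 in M2a against M0 and was the only TRIM gene past 2-fold higher there. Its M1 value was 1.05 below M0, but the M0 level lay no higher than the detection limit of the M1 array, so no size can be given to that fall. None of the 4 falls in M1 passed 2-fold in the authors' normalized table or with the larger background offset. TRIM65, the neighbour of TRIM47 on chromosome 17, read 4.95 in M1 where it was not detected, 5.51 in M2a, 5.88 in M2c and 5.83 in M0.

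In M2a against M0, 1 of 33 measurable TRIM genes rose (3.03%), against 4.09% of all 9860 genes tested, and 4 fell (12.1%), against 5.04% of all genes. The TRIM median was -0.21, against -0.01 over all genes, with 12 TRIM genes above 0 and 21 below. Of all genes tested, 4824 lay above 0 and 5030 below. TRIM36, which binds microtubules, read 6.55 in M1, 4.85 in M2a where it was not detected, 6.41 in M2c and 5.94 in M0. The M2a level was at least 1.50-fold lower than M0, and another TRIM36 probe, detected in M2a alone, was at least 1.18-fold above M0. TRIM22 was the only one of the 5 M2a calls that held under every alternative setting, between -2.38 and -1.41.

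In M2c against M0, 0 of 33 measurable TRIM genes rose, against 0.677% of all 9604 genes, and 0 fell, against 0.448%. The TRIM median was -0.04, against -0.01 over all genes. No alternative setting put a TRIM gene past 2-fold in M2c. The largest differences were TRIM46 at -0.54 and TRIM36 at 0.47.

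M1 set directly against M2a gave 10 higher TRIM genes of 33 measurable (30.3%), against 15.7% of all 9791 genes, and 2 lower (6.06%), against 18.0%. The TRIM median was 0.35, against -0.17 over all genes tested, with 25 TRIM genes above 0 and 8 below. Of all genes tested, 4230 lay above 0 and 5559 below. Fewer TRIM genes were 2-fold higher in the authors' normalized table. With the arrays set to a common median, the split was 7 higher and 5 lower, and the median over all detected genes was -0.54. Of the 12 calls, 7 held under every alternative. The widest gaps were TRIM22 at 13.2-fold (3.72 on log2), TRIM5 at 10.0-fold (3.33 on log2), TRIM31 at no less than 5.96-fold and TRIM69 at no less than 7.41-fold.

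TRIM56 was 2.32 higher in M1 than in M2a, TRIM21 1.80 and TRIM26 1.17. TRIM38 and TRIM36, undetected in M2a, were at least 2.40-fold and at least 2.29-fold higher in M1. Another TRIM36 probe, detected in M2a and not in M1, measured -0.65 for M1 minus M2a, so the TRIM36 call rests on 1 probe. Neither the TRIM38 nor the TRIM36 call held under every alternative. TRIM13, a ligase anchored in the endoplasmic reticulum, completed the 10. Its brightest probe read 8.34 in M1, 7.25 in M2a, 7.63 in M2c and 7.37 in M0, so that M1 was 1.09 above M2a and 0.98 above M0.

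The other detected probes of TRIM13 ran the other way in M1 against M0. Both were detected in M0 and not in M1, at least 1.80-fold and at least 1.90-fold lower in M1. The 1 of them that was detected in M2a measured -0.55 for M1 minus M2a. No direction can therefore be given for this gene, which counts as higher by its brightest probe alone. The lower pair in M1 against M2a was TRIM32, at -1.24, and TRIM47, which was at least 3.18-fold lower in M1.

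**Figure D3:**
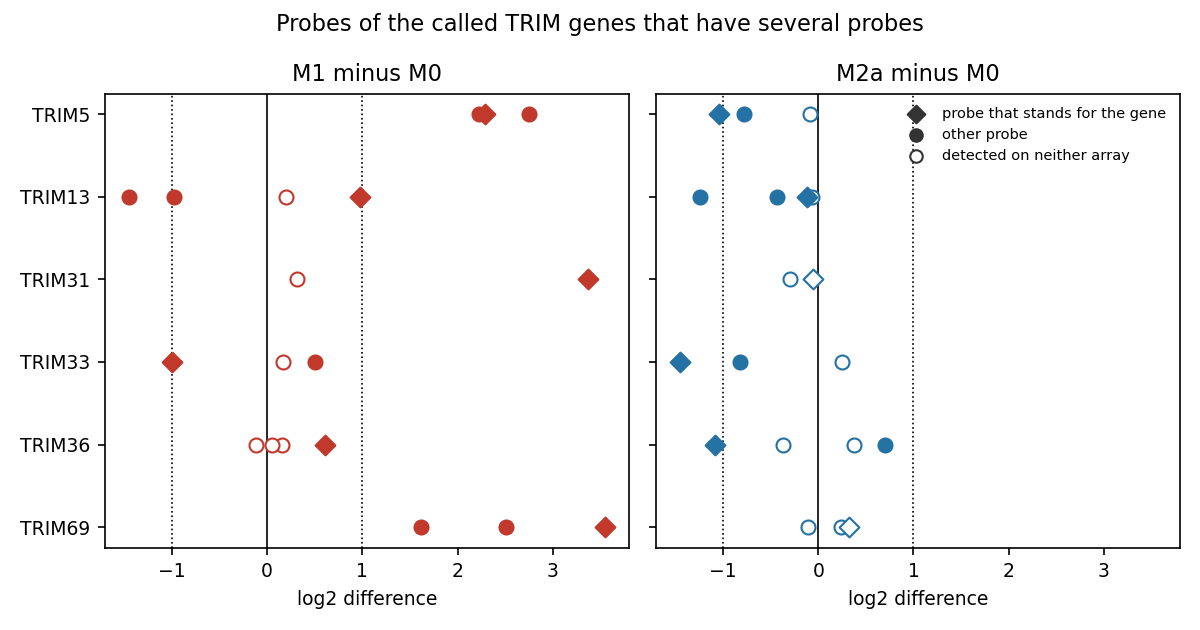
Difference from M0 (horizontal axis, log2) in M1 and M2a for each probe of the 6 TRIM genes past 2-fold in a comparison that have more than 1 probe. Diamonds are the probe that stands for the gene, circles its other probes, filled symbols were detected on 1 or both arrays, and open symbols on neither. The TRIM5 and TRIM69 probes lie on 1 side in M1, and those of TRIM13 and TRIM33 lie on both.

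The plot of single probes shows how far a call rests on 1 probe. In M1 against M0, 3 called genes had a further detected probe, and 4 of those 5 probes had the same sign and also differed by more than 2-fold as measured. For 3 of these 4, which were not detected in M0, the size is a bound, and 1 of these bounds was under 2-fold. In M2a against M0, 3 called genes had 3 further detected probes, of which 2 had the same sign and 0 passed 2-fold. Among uncalled genes, TRIM24, a nuclear receptor coregulator, was lower in M2a than in M0 by 0.79 and by 0.73 on its detected probes, neither past 2-fold.

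Besides TRIM21, the genes named for a high mean level over the 4 arrays were TRIM4, TRIM8, TRIM11 and TRIM28, and these 4 stayed within 2-fold of M0 on every array. TRIM4, a ligase of the RIG-I pathway, read 9.41 in M1, 9.76 in M2a, 9.82 in M2c and 10.03 in M0. TRIM8, a regulator of cytokine signalling, read 9.03 in M1, 8.99 in M2a, 8.84 in M2c and 9.19 in M0. Neither gene differed by 2-fold between any pair of arrays compared.

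TRIM11, a SPRY ligase, read 9.18 in M1, 8.55 in M2a, 8.33 in M2c and 8.36 in M0. TRIM28, the corepressor of KRAB zinc-finger proteins, read 7.84 in M1, 8.52 in M2a, 8.40 in M2c and 8.38 in M0. Of the 4 chromatin members TRIM24, TRIM28, TRIM33 and TRIM66, 1 fell in M1 and 1 in M2a, TRIM33 in both. In all, 21 detected TRIM genes passed 2-fold in no comparison, with differences from M0 between -0.93 and 0.93.

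**Figure D4:**
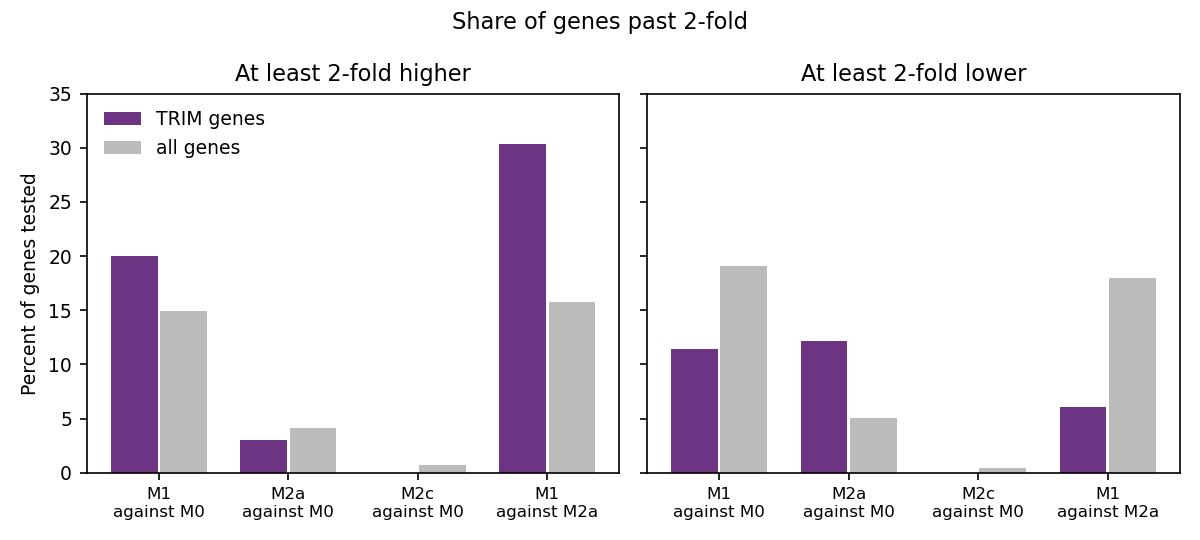
Percent of TRIM genes and of all genes tested (vertical axis) that were at least 2-fold higher or lower in each of the 4 comparisons. For M1 against M2a, 30.3% of TRIM genes and 15.7% of all genes were higher, and for M2c against M0 no TRIM gene passed in either direction. The shares that involve M1 move with the scaling of that array.

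The plot of shares sets these counts beside all genes. Taken over the arrays, M1 held the highest level for 21 of the 35 detected TRIM genes (60.0%), against 32.7% of the 10395 detected genes. M1 held the lowest level for 8 TRIM genes (22.9%), against 45.8% of all detected genes. M2a and M2c each held the lowest level for 12 (34.3%), against 21.2% and 20.6% of all detected genes. These shares include undetected values near background, whose order carries no measure, and they move with the scaling of the M1 array.

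Partners and relatives of the TRIM proteins were read from lists made for this purpose. Their counts stand beside 15.0% of all genes higher and 19.0% lower in M1 against M0, and 4.09% higher and 5.04% lower in M2a against M0. Among TRIM proteins that carry another symbol, MEFV, the inflammasome sensor pyrin, read 9.38 in M1, 5.84 in M2a, 6.11 in M2c and 6.66 in M0. MEFV rose by 2.72 in M1, and MID2, a microtubule-bound ligase, rose by 1.41 in M2a, a call that was lost in the authors' normalized table. PML, the organizer of PML nuclear bodies, was detected in M1 alone, at least 1.60-fold above M0, and MID1 was not detected.

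Of 15 members of the RIG-I pathway in which TRIM25 acts, 7 rose and 0 fell in M1 against M0, with a median of 0.85. The transcription factor IRF7 was 3.18 higher, the RIG-I-like receptor DHX58 3.10 and RIG-I itself (RIGI) 2.27. With the arrays set to a common median the count was 5 higher and 2 lower. In M2a, 3 fell and 0 rose: IRF7 by 1.41, the RNA sensor IFIH1 by 1.40, and RIGI, not detected in M2a, was at least 2.05-fold lower there. TRIM25 itself passed 2-fold in neither state.

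Among 9 detected PML nuclear body genes, 3 rose and 0 fell in M1, namely SP100 at 1.82, SP110 at 1.79 and SP140L at 1.41, and 0 passed in M2a. With the common median 2 were higher and 1 lower in M1, and the count lower in M2a was 1 with either common median. Of 10 ubiquitin-conjugating enzymes, which hand ubiquitin to RING ligases, 1 rose and 2 fell in M1. UBE2L6, which also conjugates ISG15, was 1.84 higher, UBE2E3 fell by 1.41, and UBE2R2 fell to a level that was not detected, at least 1.22-fold lower. The counts of these enzymes are near the shares of all genes. With the common median 1 was higher and 5 lower, and with the common median of detected probes 3 were higher and 1 lower.

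Of 7 heterochromatin partners of TRIM28, 2 rose and 3 fell in M1: the heterochromatin protein CBX3 was 2.36 higher, and the deacetylase HDAC2 fell by 1.53 and CBX1 by 1.23. Of 9 detected genes of interferon signalling, 2 rose and 1 fell in M1. The transcription factor IRF1 was 3.99 higher and the kinase JAK2 1.55 higher, and the interferon-gamma receptor chain IFNGR1 fell by 1.37. Under the other scalings 1 or 2 of the heterochromatin genes passed higher and 1 to 4 lower, and 1 to 4 of the interferon signalling genes passed higher and 1 or 2 lower. In M2a and in M2c 0 genes of these last 2 lists passed 2-fold.

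**Figure D5:**
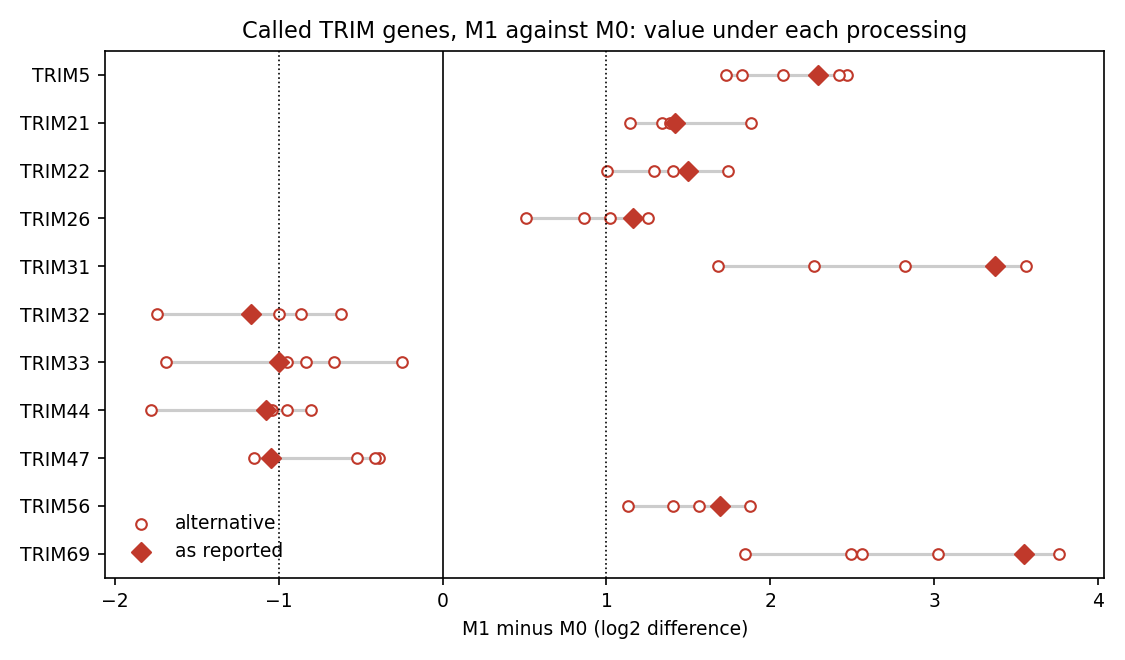
M1 minus M0 difference (horizontal axis, log2) of the 11 TRIM genes past 2-fold, as reported (filled) and under each alternative processing (open). Dotted lines mark 2-fold. TRIM5, TRIM21, TRIM22, TRIM31, TRIM56 and TRIM69 stay beyond the line under every alternative, and the genes that fell cross it.

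The plot of settings separates the M1 calls. Under every alternative TRIM5, TRIM21, TRIM22, TRIM31, TRIM56 and TRIM69 stayed past 2-fold higher, 6 of the 11 calls. TRIM5 ranged from 1.73 to 2.47 and TRIM56 from 1.13 to 1.87. TRIM22 came closest to the threshold, at 1.0005. TRIM26, TRIM32, TRIM33, TRIM44 and TRIM47 were each lost under at least 1 alternative.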

How the data were processed

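RNA of 4 THP-1 macrophage cultures was hybridised to 1 Illumina array each, 4 groups of 1. The deposited probe intensities, not normalized, and their detection p-values come from GenomeStudio, per the submitters' processing notes, version not given. The authors' normalized intensity table, which matched quantile normalization of those values, served as an alternative.

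Intensities were background-corrected with limma 3.58.1 (R 4.3.3) by normexp using the detection p-values, with an offset of 16, quantile-normalized and put on the log2 scale. This was tested on simulated arrays in which a small share of probes changed, all well above background before the change. That test does not cover arrays that differ in many genes, or probes near background on both arrays. Of 47228 probes, 30111 had 1 symbol, 8 several and 17109 are unnamed here. The probe with the highest mean stands for a gene. A call needs a 2-fold difference and detection p below 0.01 on 1 array of the pair. A lower bound on a fold uses the lowest level of a detected probe on the dim array. The number of arrays limits the precision, and no batch is given in the labels.

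Members, gene lists and rules were chosen with earlier results of these data known. Named are the genes past 2-fold in any comparison, the 5 with the highest mean level over the 4 arrays (a rule for naming only), the detected interferon list and up to 3 members of each partner list. Some genes of the partner lists were not analysed here. Alternatives were the authors' table, a common median, an offset of 50, detection p below 0.05, the mean of probes, updated symbols, probes counted singly and normalization without M1.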

Additional observations from a re-analysis of the deposited data

How the results depend on the processing

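With 1 array per state, no alternative can show replicate error. The count of TRIM genes at least 2-fold higher in M1 than in M0 was 7 of 35 and became 11 of 45 probes when probes were counted singly. The added ones are further probes of TRIM5 and TRIM69 and not further genes. The count at least 2-fold lower was 4, against 0 in the authors' normalized table, 7 with a common median, 0 with an offset of 50 and 2 with a common median of detected probes, a scaling added after the data were seen. The median TRIM difference in M1 of 0.52 was 0.23 in the authors' table, 0.36 with the offset of 50, 0.40 with detection p below 0.05, 0.30 with the mean of probes and 0.62 with the common median of detected probes, and it reversed to -0.12 with the common median, under which the median of all detected genes was -0.62. For M2a against M0, the count higher of 1 was 0 in the authors' table. The count lower of 4 was 1 in that table, 2 with the offset of 50 and 2 with the mean of probes, and the median of -0.21 was -0.10 in the authors' table and -0.055 with detection p below 0.05. For M1 against M2a, the count higher of 10 was 6 in the authors' table, and the count lower of 2 was 1 in that table, 5 with the common median and 1 with the offset of 50. The median of 0.35 there was 0.24 in the authors' table, 0.49 over probes and 0.55 with the common median of detected probes, and it reversed to -0.08 with the common median. For M2c, the counts of 0 higher and 0 lower did not move. Calls held under every alternative for 6 of 11 genes in M1, 1 of 5 in M2a and 7 of 12 in M1 against M2a. Updated symbols changed 0 members. The cause of these changes was not tested. Shares of all genes are given for the main processing alone, so counts under an alternative have no such share beside them. No paired analysis was possible because each state has 1 array. Probes near background limit what can be measured: 34 of 69 genes have no detected probe, and folds of those seen on 1 array of a pair are bounds.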

Other observations

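Several TRIM genes lay just under 2-fold and are given as values. Of 7 genes whose proteins carry the microtubule-binding COS box, 3 were detected. TRIM9 read 6.37 in M1, 6.02 in M2a, 5.38 in M2c where it was not detected, and 5.44 in M0, and TRIM46 read 7.44 in M1, 6.51 in M2a, 6.02 in M2c and 6.56 in M0. M1 minus M0 was 0.93 for TRIM9, 0.87 for TRIM46 and 0.61 for TRIM36, the third, and none passed 2-fold higher. TRIM16L, which its probe may not separate from TRIM16, read 6.12 in M1, 7.03 in M2a, 5.92 in M2c and 6.20 in M0, and was 0.83 above M0 in M2a. TRIM52 was not detected in M1 or M2a and read 5.65 in M2c and 5.69 in M0. TRIM58 showed the same pattern of detection, with 5.76 in M2c and 5.56 in M0. TRIM37, a ligase with a MATH end, was not detected in M1 and read 5.38 in M2a, 5.96 in M2c and 5.59 in M0.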
